A study of Mus musculus with 4 samples.

Results

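Regulators and matrix genes of cartilage and bone were read as a set of 10 genes chosen by name: the transcription factor genes Sox9, Sox5, Sox6, Runx2 and Sp7, and the matrix genes Acan, Comp, Matn1, Matn3 and Hapln1. Every probe set that the array's annotation gives to 1 of these genes alone was used. That gave 24 probe sets for 9 of the 10 genes, out of 18193 genes on the array: 7 for Sox5, 4 each for Sox6 and Hapln1, 3 for Sox9, 2 for Matn3 and 1 each for Acan, Comp, Matn1 and Sp7. Runx2 had 0 such probe sets and was not analysed here.

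Cartilage forms when mesenchymal cells condense and turn on Sox9, a transcription factor that binds the enhancers of cartilage matrix genes. Sox5 and Sox6 are a related pair without an activation domain of their own, which act beside Sox9 on the same enhancers. The matrix that follows includes aggrecan (Acan), the large proteoglycan that holds water in cartilage, link protein (Hapln1), which fixes aggrecan to hyaluronan, the matrilins (Matn1 and Matn3) and the cartilage oligomeric matrix protein (Comp), which connect collagen fibrils with other matrix parts. Bone formation is directed by Runx2 and then by Sp7, also called osterix, which turn mesenchymal cells into osteoblasts. Sox9, Sox5, Sox6 and Hapln1 are also expressed outside the skeleton, for example in neural progenitors, glia, muscle and, for Hapln1, the embryonic heart.

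The arrays compared mouse embryonic stem cells that carry the genotype F/F, the controls, with Snai1 knockout stem cells. Snai1 encodes a zinc-finger repressor that binds E-boxes and switches off epithelial genes in epithelial-mesenchymal transition. From each genotype, embryoid bodies were made in hanging drops and then grown in suspension in a medium for spontaneous differentiation until day 5, and teratomas were grown for 6 weeks in male nude mice, whose age at the start was 6 weeks, after subcutaneous injection of stem cells into a hind limb. Each of the 4 groups had 1 array. The labels do not say whether a sample was 1 tumour or several, or how many stem cell clones were used. Teratomas hold mouse host cells such as vessels and stroma, which these arrays cannot separate from the tumour's own cells.

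Values are log2 expression per probe set. Since no group was replicated, differences compare 2 single arrays and carry no test. A floor was set on each array at the median of its own probe sets, at 4.71 for control and 4.73 for knockout embryoid bodies and 5.08 for the control and 5.04 for the knockout teratoma. A value under the floor was raised to it before a difference was taken. A difference with 1 array below the floor is a lower bound on the size, and none is given where both lie below. A gene was called higher or lower at a difference of 1 or more on the log2 scale, which is 2-fold. The targeted gene, Snai1, read 4.78 in control and 3.45 in knockout embryoid bodies, and 3.59 and 3.44 in the control and knockout teratomas. Only the first of these lies above its floor, so the array checks the labels weakly, and whether the probe set lies in the deleted part is not given.

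Sequence upstream of the members is shown because the series removes a repressor that binds E-boxes. The RefSeq promoter table (GRCm38.p6) holds 12 windows for 7 members, of which 6 are alternative starts of Sox6; Sox9, Comp and Sp7 had no window there. Each window was searched over the 250 bases before the start site on both strands for the Snail E-box CAGGTG, which reads CACCTG on the other strand, the SOX core ACAAT, which reads ATTGT there, and the RUNX core TGTGGT, which reads ACCACA there. The E-box was found in 2 of the 12 windows, against 17.22% of 32851 windows in the table. The SOX core was in 6 of the 12, against 27.66%, and the RUNX core in 5 of the 12, against 14.05%. Because 6 windows belong to 1 gene, these counts are not independent: Sox6 gave 1 of the 2 windows with the E-box, 3 of the 6 with the SOX core and 2 of the 5 with the RUNX core.

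Printed here are the windows of both genes with an E-box and that of Hapln1, the matrix gene read above the floor, each 5′ to 3′ on the gene's strand and ending at the base before the start site. Capitals mark the motifs, which do not overlap.
Sox6, chr7:116031048-116031297, minus strand: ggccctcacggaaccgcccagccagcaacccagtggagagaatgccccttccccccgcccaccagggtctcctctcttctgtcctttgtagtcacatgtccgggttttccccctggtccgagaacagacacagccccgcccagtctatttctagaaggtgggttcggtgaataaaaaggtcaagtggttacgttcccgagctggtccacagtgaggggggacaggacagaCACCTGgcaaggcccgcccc
Matn1, chr4:130944135-130944384, plus strand: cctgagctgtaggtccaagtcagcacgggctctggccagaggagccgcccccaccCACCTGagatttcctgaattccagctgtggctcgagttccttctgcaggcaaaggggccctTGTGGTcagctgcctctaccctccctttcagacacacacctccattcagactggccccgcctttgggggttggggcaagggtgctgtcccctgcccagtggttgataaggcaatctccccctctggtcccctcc
Hapln1, chr13:89540386-89540635, plus strand: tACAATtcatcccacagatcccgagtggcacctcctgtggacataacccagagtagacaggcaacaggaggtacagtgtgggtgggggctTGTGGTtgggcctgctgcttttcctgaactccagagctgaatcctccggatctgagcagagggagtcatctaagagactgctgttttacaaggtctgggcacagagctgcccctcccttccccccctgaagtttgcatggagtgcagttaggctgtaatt

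In the Sox6 window the E-box begins at position -20 from the start site, and in the Matn1 window at -195, with a RUNX core at -134. The Hapln1 window holds a SOX core at -249 and a RUNX core at -160. The other 5 Sox6 windows held no E-box. A match gives letters in a window and not a bound site, and the arrays do not show which Sox6 start was used.

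Of the 24 probe sets, 12 lay below the floor on all 4 arrays. Each floor is a median, so by construction 50% of an array's probe sets lie below it. The share of all probe sets below it on all 4 arrays was not counted. Of the 24, the number at or above the floor was 8 in each embryoid body sample, 7 in the control teratoma and 6 in the knockout teratoma. These belonged to 4 genes, Sox9, Sox5, Sox6 and Hapln1. The other 5 members with a probe set, Acan, Comp, Matn1, Matn3 and Sp7, stayed below the floor on every array, with 24 values from 6 probe sets between 2.42 and 4.32. The set is therefore named for what its genes do in the skeleton, and in these samples it was read as 3 SOX genes and 1 link protein gene.

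**Figure D1:**
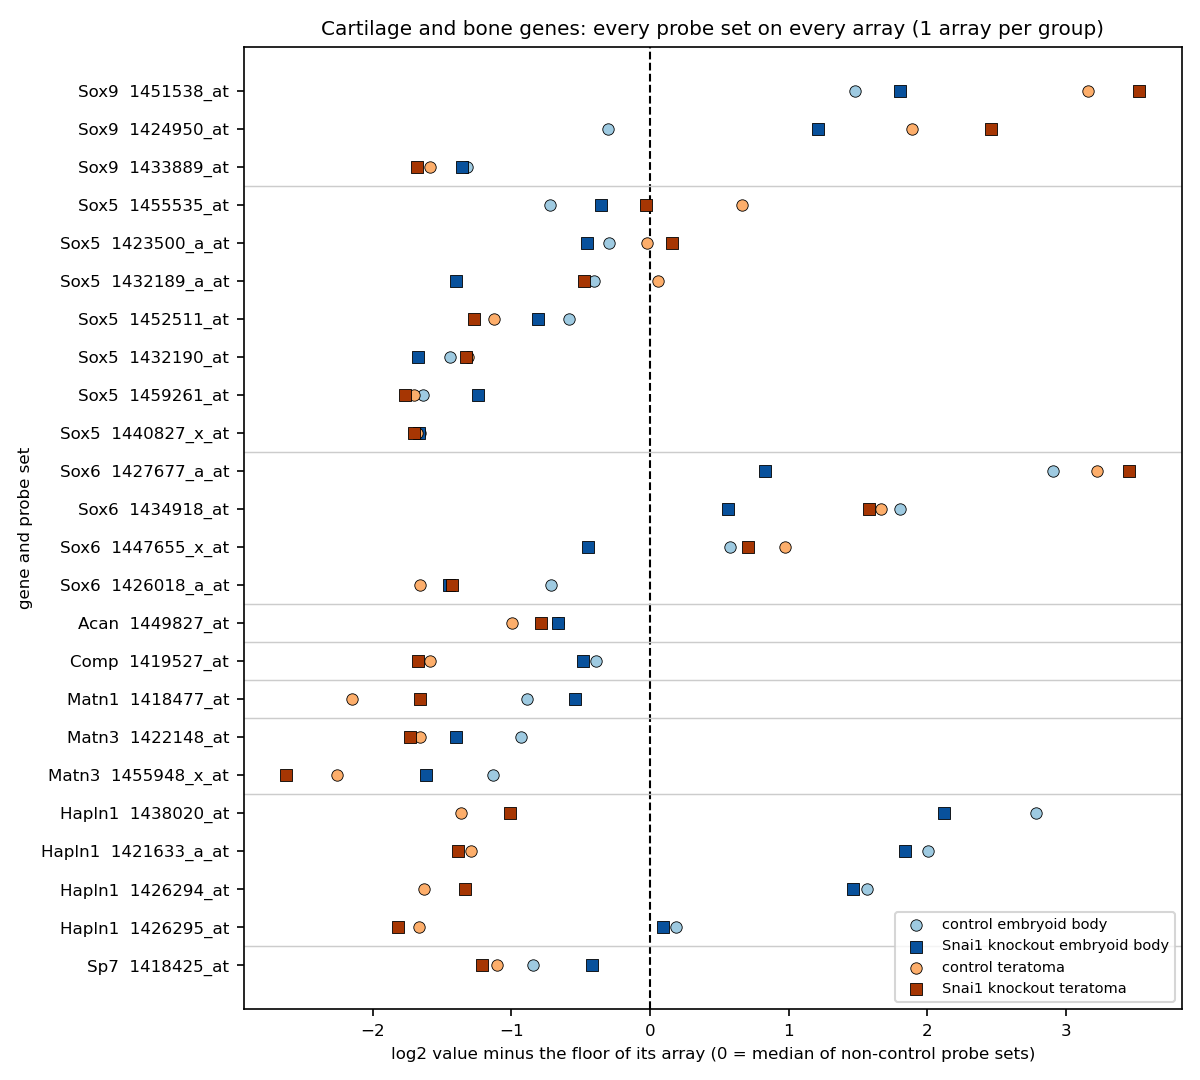
Log2 value minus the floor of its array (x axis) for each of the 24 probe sets (y axis, grouped by gene), with 1 point per array: circles for control, squares for Snai1 knockout, blue for embryoid bodies and orange or brown for teratomas. The dashed line at 0 is the floor. The top Sox9 and Sox6 probe sets lie more than 3 log2 units above it in both teratomas, Hapln1 lies above it in embryoid bodies alone, and the points of Acan, Comp, Matn1, Matn3 and Sp7 lie below it.

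Acan, the aggrecan core protein, read 4.04 in control and 4.07 in knockout embryoid bodies and 4.09 in the control and 4.26 in the knockout teratoma. Comp read 4.32, 4.25, 3.50 and 3.37 in the same order, and Matn1, the matrilin of mature cartilage, 3.83, 4.19, 2.93 and 3.39. Both probe sets of Matn3 lay between 2.42 and 3.78. Sp7, the osteoblast factor, read 3.87, 4.32, 3.98 and 3.83. None of these has a fold change, and a value under the floor does not show that the transcript was absent.

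Related matrix genes were read beside the members. Of 8 collagen chains of cartilage, which are not members, 5 (Col2a1, Col9a1, Col9a3, Col11a1 and Col27a1) lay above the floor on all 4 arrays, and 3 (Col9a2, Col10a1 and Col11a2) lay below it on all 4. Of 17 further cartilage matrix and surface genes on the array, 5 were below the floor everywhere. Of 19 bone matrix and osteoblast genes, 9 were below the floor everywhere. The share of all genes below the floor on all 4 arrays was not counted, so these counts have no background beside them. Markers of other cells were plain in the teratomas: 13 of 13 neural and glial markers lay above the floor on each teratoma array, against 6 in control and 7 in knockout embryoid bodies, and 10 of 12 skeletal muscle markers in the control and 11 of 12 in the knockout teratoma, against 4 in each embryoid body sample. In whole tissues, fewer cells of a type and less RNA per cell cannot be told apart.

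Sox9, the master regulator of chondrocytes and also a regulator of neural stem cells and gut progenitors, was higher in teratomas than in embryoid bodies, and its probe sets disagreed on the size of its difference with Snai1. Its probe set with the highest mean read 6.19 in control and 6.53 in knockout embryoid bodies and 8.24 in the control and 8.57 in the knockout teratoma. Both teratoma values exceed both embryoid body values, and in each tissue the knockout reads slightly higher, by 0.35 in embryoid bodies and 0.33 in teratomas. The difference between these differences was -0.01.

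A further Sox9 probe set read 4.41, below the floor, in control embryoid bodies, then 5.95, 6.97 and 7.50. It places the knockout embryoid bodies at least 2.36-fold above the control, past the 2-fold limit that the first probe set does not reach. In teratomas it differed by 0.53. The last probe set, at 3.36 to 3.49, was below the floor on all 4 arrays. The direction is shared by the Sox9 probe sets that were read, and the size in embryoid bodies rests on which is taken.

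Sox5, the partner of Sox6 in cartilage, was read above the floor in teratomas alone. Its probe set with the highest mean read 3.99 and 4.38 in control and knockout embryoid bodies, both below the floor, and 5.74 in the control and 5.02 in the knockout teratoma, the latter just below its floor. The teratoma difference is a bound of -0.70, under 2-fold. Of its other probe sets, 1 read 5.06 and 5.20 in the teratomas, with a bound of 0.12, and 1 read 5.14 and 4.57, with a bound of -0.10; the first of these has 5.06 under the floor. The remaining 4 probe sets lay below the floor on all arrays, between 3.05 and 4.13. Sox5 was thus near the floor in teratomas, and its probe sets give no shared direction with Snai1.

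Sox6, which works with Sox5 in chondrocytes and also acts in neural, muscle and red cell precursors, was the member that differed most with Snai1, and it did so in embryoid bodies. Its probe set with the highest mean read 7.62 in control and 5.56 in knockout embryoid bodies, 4.16-fold lower in the knockout. In teratomas it read 8.31 in the control and 8.50 in the knockout. The knockout embryoid bodies thus stand below the other 3 samples, which lie within a log2 unit of each other.

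A second Sox6 probe set read 6.52, 5.29, 6.75 and 6.62 in the same order, which is 2.33-fold lower in knockout embryoid bodies and a difference of -0.13 in teratomas. Another read 5.29, then 4.29, below the floor, then 6.05 and 5.75, with a bound of -0.55 in embryoid bodies and a difference of -0.30 in teratomas. The last, at 3.28 to 3.62 in 3 samples and highest in control embryoid bodies, was below the floor on all 4 arrays. All 3 probe sets that were read give a lower value in knockout embryoid bodies, and they disagree on the direction in teratomas. The probe set of highest mean and the last of the 3 have names that mark sequence shared between transcripts. Without such probe sets the embryoid body difference was -1.22, and the mean of all probe sets gave a bound of -1.12.

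Hapln1, which links aggrecan to hyaluronan and is also needed in the developing heart valves, was read in embryoid bodies, while both teratoma values lay under the floor. Its probe set with the highest mean read 7.49 in control and 6.86 in knockout embryoid bodies and 3.72 and 4.04 in the control and knockout teratomas. The other 3 probe sets read 6.72, 6.27 and 4.90 in control embryoid bodies against 6.57, 6.19 and 4.83 in the knockout. The knockout read lower on each of the 4, by 0.64 on the first on the log2 scale and with differences of -0.15, -0.08 and -0.07 on the rest. None of these reaches 2-fold. In teratomas all 4 probe sets lay below the floor, between 3.23 and 4.04.

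**Figure D2:**
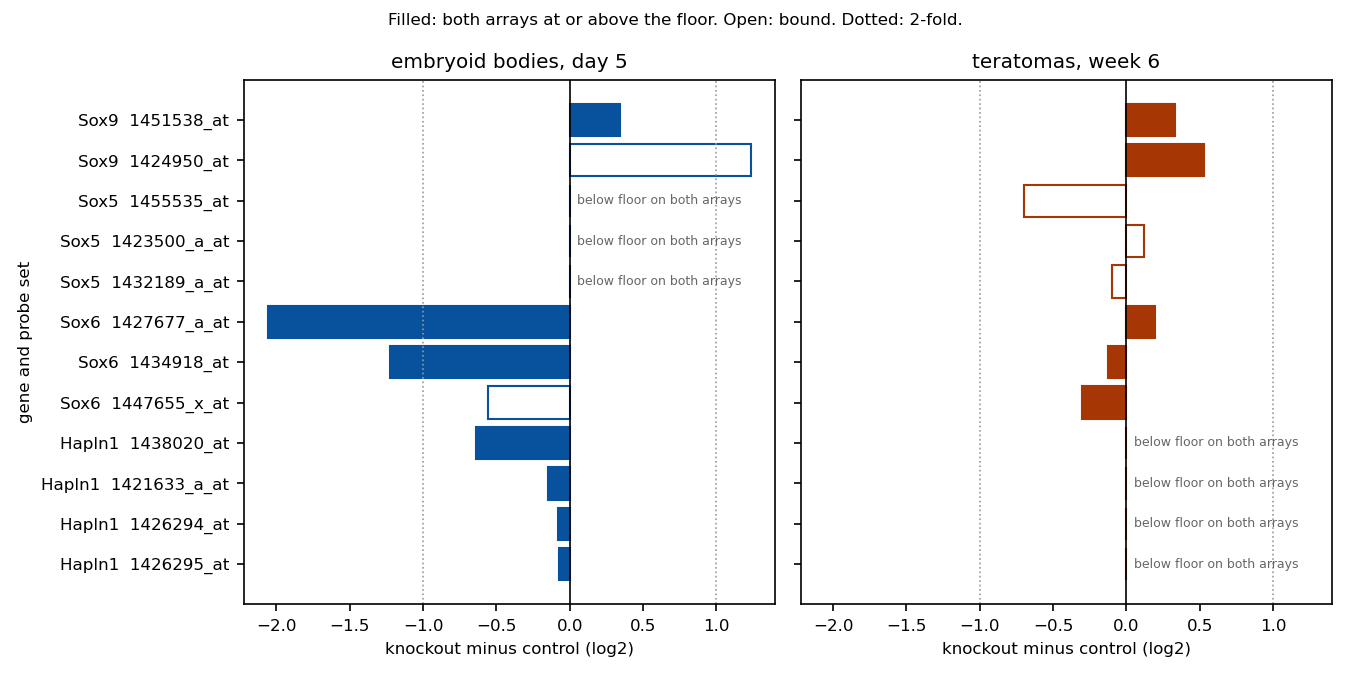
Bars give the knockout minus control difference (log2, x axis) of the 12 member probe sets at or above the floor on any array (y axis), in embryoid bodies and in teratomas; filled bars have both arrays at or above the floor, open bars are bounds and dotted lines mark 2-fold. The Sox6 bars at -2.06 and -1.22 pass 2-fold on the lower side and the Sox9 bound of 1.24 on the higher side, and no teratoma bar does.

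The comparison of knockout with control embryoid bodies asks which of these genes differ when Snai1 is absent early in differentiation. With 1 probe set per gene, 3 members were read, of which 0 were called higher, against 2.18% of 12282 genes, and 1, Sox6, lower, against 3.98%. In teratomas 3 members were read and 0 were called in either direction, against 3.25% of 12197 genes higher and 1.07% lower. The median over all genes was 0.03 in embryoid bodies and 0.06 in teratomas. A single call among 3 genes is too few to read against these shares. As a measure of technical scatter, the pooled SD between probe sets of 1 gene was 0.29 over 4977 genes in embryoid bodies and 0.28 over 4661 genes in teratomas. The Sox6 difference exceeds that scatter. Those of the first Sox9 probe set lie close to it, and the embryoid body bound of 1.24 on the other exceeds it. The scatter covers the same RNA and array and leaves out variation between cultures and tumours.

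Markers of other cells differed beside Sox6 in embryoid bodies. Their lists were chosen with earlier results of these data known, so the counts describe these samples and are no independent support. Of 11 general mesenchyme markers, 9 were at least 2-fold lower in the knockout, with a median difference of -3.27 and a mean height above the floor of 4.53 in the control against 1.14 in the knockout. The collagen-binding proteoglycan gene Lum differed by -6.36, Postn by -5.94 and the fibrillar collagen gene Col3a1 by -5.79. Of 8 red cell markers read, 7 were at least 2-fold lower, with a median of -3.69 and mean heights of 4.86 and 1.95; the embryonic globin gene Hba-x differed by -4.38 and the haem synthesis gene Alas2 by -4.10. The neural and glial list, by comparison, had 0 of 8 called in either direction and a median of 0.24. The part of these cells in the Sox6 difference was not tested. In teratomas, where Sox6 differed by 0.19, the mesenchyme list had a median of -0.42, with 2 genes higher and 3 lower of 11, and 2 red cell markers were read, with 0 called.

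Cartilage collagens in knockout embryoid bodies went both ways. Of the 5 that were read, 1 was called higher and 1 lower, with a median of -0.14. Col2a1, the main fibril collagen of cartilage and a textbook target of the SOX trio, read 6.68 in control and 8.35 in knockout embryoid bodies, 3.19-fold higher, and 7.15 and 7.01 in the teratomas. Col9a1, which coats those fibrils, read 7.76 and 5.85 in embryoid bodies, 3.76-fold lower, and 7.44 and 7.19 in the teratomas. A second Col9a1 probe set gave -0.37 there, so the call rests on 1 probe set. In teratomas 0 of the 5 collagens were called in either direction, and the median was -0.14. Col2a1, which has 1 probe set, thus read higher in the embryoid body sample in which Sox6 read lower. Sox9 read higher in that sample, by 0.35 on the chosen probe set and by a bound of 1.24 on another. A link between these genes was not tested.

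The further cartilage matrix genes had 9 members read in embryoid bodies, with 0 higher, 1 lower and a median of -0.08. The lower gene was Fmod, the collagen-binding fibromodulin, at 6.26 in the control and 4.23, below the floor, in the knockout, a bound of -1.53. Its 5 probe sets that were read ranged from -1.53 to -0.07. In teratomas 10 were read, with 1 higher, 1 lower and a median of 0.37. Scrg1, a secreted protein gene of cartilage and of the nervous system, was 2.37-fold higher in the knockout teratoma (8.53 against 7.28), and Cilp, an intermediate layer protein gene of cartilage, was 3.60-fold lower (5.71 against 7.56). Matn4, the matrilin related to Matn1 and Matn3 that is also expressed in brain, read 5.52 in the control and 6.40 in the knockout teratoma, a difference of 0.88.

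Bone matrix and osteoblast genes had 9 members read in embryoid bodies, with 0 higher, 2 lower and a median of -0.11. The lower genes were the chains of type I collagen, Col1a1 at -2.96 and Col1a2 at -3.71, which general mesenchyme also expresses. In teratomas 8 were read, with 0 higher, 1 lower and a median of -0.14, where Col1a1 differed by -1.20 and Col1a2 by -0.84. The Col1a2 probe sets ranged from -1.43 to -0.84 there, so that it was not called rests on the chosen one. Alpl, the alkaline phosphatase of osteoblasts and of stem cells, differed by 0.24 and 0.58 in embryoid bodies and teratomas. Dlx5, a homeobox gene upstream of Sp7, was below the floor in both embryoid body samples and differed by -0.51 in teratomas.

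Signals and factors that steer cartilage and bone formation were read for 32 genes in embryoid bodies, of which 5 were higher and 4 lower, with a median of -0.05. The higher genes included the sclerotome factors Pax1, 5.22-fold, and Pax9, 3.21-fold, the mesenchymal forkhead factor Foxc2, 3.28-fold, and the secreted Wnt antagonist Frzb, 2.78-fold. Pax1 has a second probe set that differed by 0.28, and those of Pax9 ranged from 0.72 to 1.68. Pax1, Pax9 and Foxc2 are also expressed outside the skeleton, Pax1 and Pax9 in pharyngeal endoderm, and of the 12 gut and foregut epithelium markers 2 were higher and 1 lower, with a median of 0.48. The part of that epithelium in the result was not tested. In teratomas 30 signal genes were read, 0 were called in either direction, and 22 lay below 0, with a median of -0.34 against 0.06 over all genes. Runx1, the paralog of Runx2 that drives blood formation, differed by -0.87, the Hedgehog effector Gli3 by -0.81, and Bmp4 and Prrx1 by -0.73 each.

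Genes of the hyaluronan and aggrecan complex, where Hapln1 acts, had 12 members read in embryoid bodies, with 0 higher, 3 lower and a median of -0.23. The protease gene Adamts1 differed by -1.90, the hyaluronan receptor gene Cd44 by -1.20 and the protease gene Adamts9 by -1.04. The Adamts9 probe sets ranged from -1.04 to 0.33, so that call rests on the chosen one. In teratomas 10 were read, with 0 called and a median of 0.01. Cd44 differed by 0.84 and the versican gene Vcan by -0.84. The Vcan probe sets ranged from -1.11 to -0.84, so that it was not called rests on the chosen one. Enzymes for sulphate and for chondroitin chains had 12 members read in embryoid bodies, with 0 higher and 1 lower, Papss2, which makes the sulphate donor, at a bound of -1.30. In teratomas 10 were read and 0 called, and the sulphotransferase gene Chst11 differed by 0.97.

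The closest paralogs of the members had 12 genes read in embryoid bodies, with 1 higher, 1 lower and a median of -0.14. The higher was Sp5, a paralog of Sp7 that responds to Wnt signals, at 1.65, and the lower was Thbs1, a relative of Comp, at -1.16. In teratomas 14 were read, with 0 higher, 1 lower and a median of -0.15, and Thbs2, another relative of Comp, differed by -1.08. A second Thbs2 probe set gave -0.14 and a second Thbs1 probe set -0.60, so both calls rest on 1 probe set. Of 10 osteoclast markers, 5 were below the floor on all arrays; of those read, 2 of 4 were lower in knockout embryoid bodies, the integrin gene Itgb3, at -3.54, and the acid phosphatase gene Acp5, at a bound of -2.42. Itgb3 has a further probe set at -0.16. Of 8 tendon and synovium markers, 6 were below the floor on all arrays, and the matrix gene Tnc differed by -2.21 in embryoid bodies. Of the Sertoli cell markers, 2 were read in each tissue, with 0 called in embryoid bodies and 1 higher in teratomas, and of the skeletal muscle markers 0 of 4 were called in embryoid bodies while 1 of 11 was higher and 3 lower in teratomas.

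**Figure D3:**
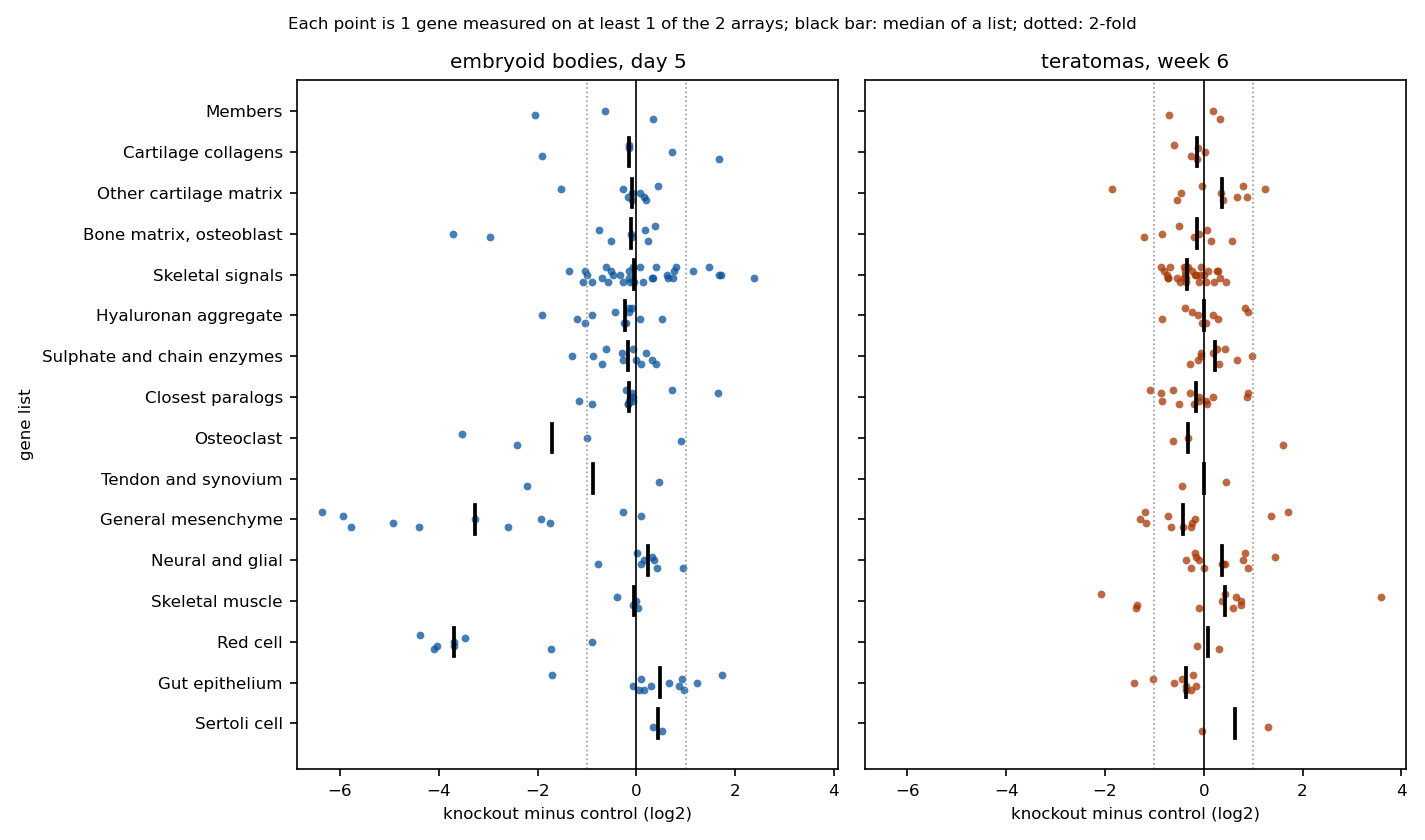
Knockout minus control difference (log2, x axis) of each gene read on at least 1 of the 2 arrays, for the members and 15 gene lists (y axis), in embryoid bodies and teratomas. Black bars are list medians and dotted lines 2-fold. In embryoid bodies the mesenchyme and red cell lists lie furthest to the left, with medians of -3.27 and -3.69, while the cartilage collagens lie on both sides of 0. The lists were chosen with earlier results of these data known.

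Teratomas were then set against embryoid bodies of the same genotype. Heights above each array's own floor were compared, because it is not stated whether all 4 arrays were normalized together. Tissue goes with age, host cells and the method of RNA extraction, so these cannot be told apart. The 3′ minus 5′ signal of the Gapdh control probe sets, a sign of RNA integrity, was 0.17 in the control and 0.10 in the knockout sample of embryoid bodies, and 0.65 and 0.40 in the matching teratomas. Its part in the differences was not tested.

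Between control samples, 4 members were read, with 1 higher, Sox9, against 11.8% of 12956 genes, and 1 lower, Hapln1, against 31.6%. Between knockout samples, 3 members were read, with 2 higher, Sox9 and Sox6, against 15.7% of 12936 genes, and 1 lower, Hapln1, against 29.3%. The background depends on the scale. The median over all genes was -0.55 for controls and -0.46 for knockouts, and -0.18 and -0.15 on the values as deposited. There the higher and lower genes numbered 2098 and 2456 for controls, in place of 1533 and 4100, and 2566 and 2564 for knockouts, in place of 2036 and 3786.

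Sox9 stood 3.20-fold higher in the control teratoma and 3.31-fold higher in the knockout teratoma, as differences in height of 1.68 and 1.73, and of 2.05 and 2.04 on the values as deposited. Its second probe set gave a bound of 1.89 and a difference of 1.24. The mean of all Sox9 probe sets gave a bound of 1.15 and a difference of 0.88, the latter under 2-fold. The Sox5 probe set with the highest mean gave a bound of 0.66 in controls. That was 1.03 on the values as deposited and 1.79 with the floor at the 25th percentile, both past 2-fold. On both knockout arrays this probe set was below the floor. Of the other Sox5 probe sets, 1 gave a bound of 0.06 in controls and 1 a bound of 0.16 in knockouts.

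Sox6 differed by 0.32 between the control samples and by 2.63, or 6.18-fold, between the knockout samples. Its second probe set gave -0.14 and 1.02, and the next 0.40 and a bound of 0.71. Each probe set gives a larger step in the knockout pair than in the control pair, and the second sets the knockout step near 2-fold. On the first probe set the order of the 4 samples by height was knockout embryoid bodies, control embryoid bodies, control teratoma and knockout teratoma, and the last 3 are neighbours that differ by less than the pooled SD of 0.66 between probe sets of a gene across tissues. The second and the next probe set also place knockout embryoid bodies lowest, but order the other 3 samples differently.

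Hapln1 was at least 6.87-fold lower in the control teratoma and at least 4.36-fold lower in the knockout teratoma, as bounds of -2.78 and -2.12. The other probe sets gave bounds of -2.01, -1.56 and -0.19 in controls and of -1.84, -1.46 and -0.09 in knockouts, the last from a probe set that lies close to the floor in embryoid bodies. A floor at the 65th percentile shrank the knockout bound to -0.61, under 2-fold.

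**Figure D4:**
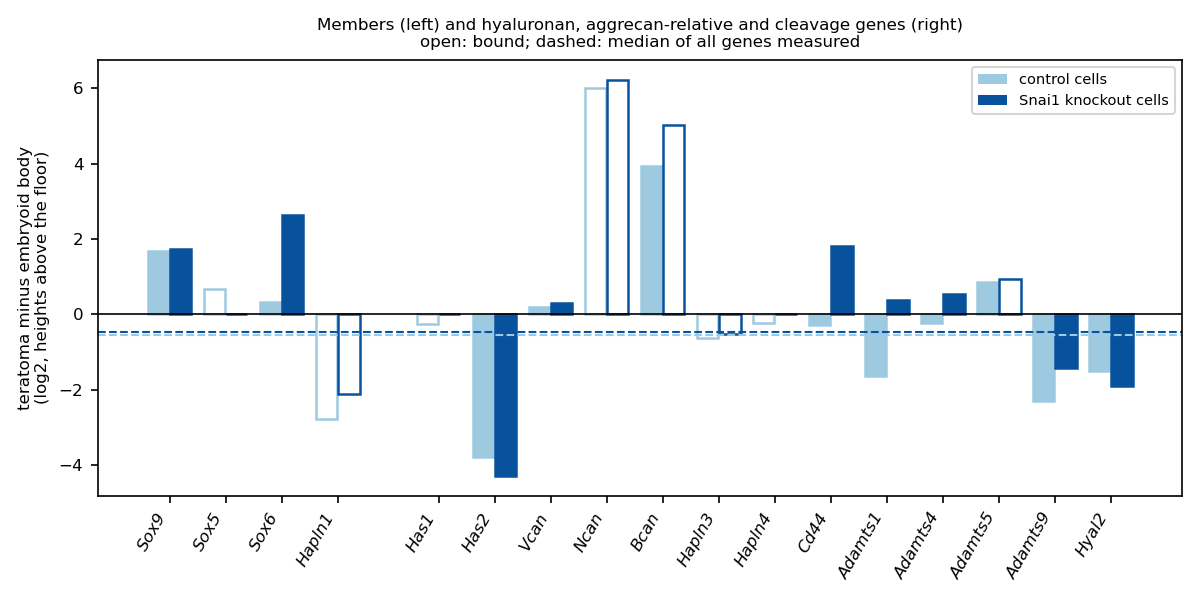
Teratoma minus embryoid body difference in height above the floor (log2, y axis) for the 4 members that were read, on the left, and for the 13 genes read from the hyaluronan and aggrecan list, on the right (x axis); light bars are control and dark bars knockout samples, open bars are bounds, and dashed lines are the medians of all genes, -0.55 and -0.46. Sox9 lies at 1.68 and 1.73, Hapln1 at bounds of -2.78 and -2.12, and Sox6 at 0.32 in controls and 2.63 in knockouts.

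Lists of other cell types were read on the same scale. The neural and glial list had 12 of 13 genes at least 2-fold higher in the control teratoma and 11 of 13 in the knockout teratoma, and its mean height was 3.73 in the first and 4.08 in the second, against 0.77 and 0.88 in embryoid bodies. The skeletal muscle list had 9 of 10 higher in controls and 8 of 11 in knockouts. Red cell markers had 8 of 8 lower in controls and 4 of 6 in knockouts, and gut epithelium markers 7 of 11 and 10 of 12 lower. The mesenchyme list had 4 higher and 3 lower of 11 between controls and 10 higher and 1 lower between knockouts. The part of these cells in the differences of Sox9, Sox6 and Hapln1 was not tested.

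Among the skeletal lists, cartilage collagens had 0 of 5 called in either direction between controls, and 1 higher and 1 lower between knockouts. Further cartilage matrix genes had 3 of 11 higher and 0 lower between controls and 5 of 11 higher and 0 lower between knockouts, among them Scrg1, at bounds of 2.20 and 3.48, and Mia, also made by melanocytic cells, at a bound of 2.28 and a difference of 2.53. Bone genes had 1 higher and 2 lower of 10 between controls and 3 higher and 2 lower of 10 between knockouts. In the aggrecan family, where Acan itself was below the floor, the brain proteoglycan gene Bcan differed by 3.93 and by a bound of 5.03. Ncan, another brain proteoglycan gene, chosen after its values were seen, read 4.48 and 4.35 in embryoid bodies, below the floor, and 11.09 and 11.27 in the teratomas, at least 64.2-fold and 74.9-fold higher.

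Genes with the most similar pattern over the 4 arrays were sought for the regulator and the matrix gene of widest range, Sox6 and Hapln1, by Euclidean distance between centred heights among 7585 genes. The closest to Sox6, whose range was 2.63, were Pltp, a lipid transfer protein gene, at 0.21, Samd14 at 0.24, Fam149a at 0.31, Ifi35 at 0.32 and Cavin1, a gene for the coat of caveolae, at 0.37. Pltp, for example, read 9.03 in the control and 7.25 in the knockout sample of embryoid bodies, and 9.86 and 10.15 in the teratomas. The closest to Hapln1, whose range of 2.78 is a bound because both teratoma values were raised to the floor, so that the distances rest on those floor values, were Mitd1 at 0.10, Kirrel at 0.13, Cdkn3 and Kntc1, which act in cell division, at 0.14 each, and Pawr at 0.18. With 4 arrays, such nearness is a description of these samples.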

How the data were processed

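The deposited values are log2 levels of probe sets, which the authors computed with affy and RMA (background correction, quantile normalization and probe summary), per the submitters' processing notes. Versions, chip definition and joint normalization of the 4 arrays were not given in the sources used, and scanner files were not used here. Biotin-labelled RNA came from 250 ng of total RNA, purified on columns for embryoid bodies and with Trizol for teratomas, per the labels' protocols.

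Of 45101 probe sets, 64 were controls. Of the other 45037, 34945 named 1 gene in the platform annotation, 932 several and 9160 none; 34741 Entrez numbers matched RefSeq (GRCm38.p6), and 0 symbols changed. Probe sets naming several genes were left out. A gene is represented by its probe set of highest mean on the 4 arrays, and each member probe set was also read alone. The code was tested on simulated data and ran in Python 3.11.15 with pandas 2.3.3 and numpy 2.4.6.

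The members and the 15 gene lists (227 entries, 214 different genes) were chosen with earlier results of these data known. Named are all members, and up to 4 genes per list and tissue with the largest absolute difference between knockout and control. The 5 genes most alike to Sox6 and to Hapln1 are also named, leaving out clone and accession names. They were sought among genes whose representing probe set had a range of 1 or more and reached the floor on some array. Ncan and the 3 cartilage collagens below every floor are exceptions, picked once values were known. Alternatives covered the floor, the fold limit, the probe set per gene and the scaling.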

Additional observations from a re-analysis of the deposited data

Results flagged for a closer look

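Opposite directions in the 2 tissues were looked for in members with a 2-fold difference in either tissue and in the named list genes with one in both; other genes differ in sign by less. The difference between tissues was not tested because each has 1 array per group. Sox6 differed by -2.06 in embryoid bodies and by 0.19 in teratomas, where the pooled SD between probe sets was 0.28. That change of sign rests on the chosen probe set. A second gave -1.22 and -0.13, and another a bound of -0.55 and a difference of -0.30, lower in the knockout in both tissues. Acp5, the acid phosphatase gene of osteoclasts and macrophages, had bounds of -2.42 and 1.60, and Sox17, an endoderm and endothelial factor gene, differed by 1.23 and -1.42.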

How the results depend on the processing

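The alternatives changed 67 member values, 48 by less than the scatter between probe sets and 19 by more, and 0 reversed a call; values that an alternative leaves as they are by construction are not counted. Called members in embryoid bodies numbered 2 in place of 1 at a 1.5-fold limit, where Hapln1 joined Sox6 on the lower side. Over all genes measured, 15.3% were called there in either direction, in place of 6.16%. The embryoid body count was also 2 with the probe set of largest range per gene, against 7.58% of all genes. There Sox9 joined on the higher side. In teratomas the count was 1 in place of 0 at 1.5-fold, against 15.3% of all genes in place of 4.33%. With no floor, 5 members were called between tissues in place of 2 for controls, and 5 in place of 3 for knockouts, though values below the floor have no order. The shares of all genes called were 36.6% for controls and 37.4% for knockouts, in place of 43.5% and 45%. For controls the count was 3 in place of 2 with the floor at the 25th percentile and on the values as deposited. Sox5 joined there, at 1.79 and a bound of 1.03, and 31.7% and 35.1% of all genes were called. At a 1.5-fold limit the control count was also 3, against 65.5% of all genes. For knockouts the count fell to 2 in place of 3 with the floor at the 65th percentile, against 39.5% of all genes. There the Hapln1 bound was -0.61. The knockout count also fell to 2 with the mean of all probe sets, where Sox9 differed by 0.88 and 39.1% of all genes were called. The Sox6 difference between the tissues' knockout effects was 2.25, and 1.10 without shared-sequence probe sets. It was 1.57 with the floor at the 65th percentile and 1.11 with the mean of all probe sets, both resting on a bound in embryoid bodies. The same difference for Sox9 was -0.01, and -0.71 with the probe set of largest range, where the embryoid body value is a bound. The cause was not tested. Without shared-sequence probe sets Sox6 in teratomas differed by -0.13 in place of 0.19. No paired analysis was possible because each group has 1 array. The number of arrays limits precision throughout.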
